A study of Mus musculus with 6 samples.

Results

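The genes of the matrix metalloproteinases (MMPs), the ADAM and ADAMTS proteinases, the ADAMTS-like proteins and their tissue inhibitors (TIMPs) were followed in liver endothelial cells (ECs) of young and aged mice. Members were chosen by symbol alone, as every Mmp, Adam, Adamts or Adamtsl symbol ending in a number, with or without a final a or b for Mmp and Adam, and Timp1 to Timp4. This gave 84 of the 24421 gene symbols in the count table, and the same number was found among the 24346 symbols of a second table of FPKM values, a measure corrected for transcript length and sequencing depth. RNA came from 50000 CD31+CD45- ECs per sample, sorted from C57BL/6J mice that the methods give as female. The young group held 3 samples of 10-week-old mice, and the aged group held 1 sample each of 127, 131 and 136 weeks. No transgene, allele or treatment is named for either group, and the livers of both were digested with dispase and collagenases before the sort. The methods call the samples independent, and the comparison asks which transcripts of liver ECs differ with age.

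MMPs are zinc-dependent proteinases, either secreted or held at the cell surface, that cut collagens and other matrix proteins and are made as inactive precursors. ADAMs span the membrane, and their proteolytic members release the outer parts of ligands, receptors and adhesion molecules, while other members have lost the catalytic site. ADAMTS proteinases are secreted and cut proteoglycans, procollagens or von Willebrand factor. TIMPs bind the active site of these enzymes. In the liver this system has mostly been studied in fibrosis, where stellate cells and macrophages are known sources of several members, and the sinusoidal ECs lie on a loose matrix without a continuous basement membrane.

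The samples held 23001556 to 31651817 counts, and values are given as CPM, that is counts relative to library size, after TMM normalization in edgeR (factors of 0.964 to 1.11). A gene at the floor of 3 counts, the upper limit that a count of 0 allows, stood at 0.0947 to 0.135 CPM. No pair of samples of the same age agreed within sampling noise (smallest chi-square per degree of freedom 20.2). Young replicate 3 and the 127-week sample held 1.29% and 0.960% of their counts on Lars2 and Rn45s, symbols that collect ribosomal RNA reads, against 4.68% to 5.53% in the remaining 4. For the main members the difference within each of these library clusters, on the log2(CPM + 1) scale, stands beside the pooled one.

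Of the 84 members, 53 reached the filter of 0.5 CPM in at least 1 sample and were tested, 13 had between 1 and 41 counts over all 6 libraries, and 18 had 0 counts everywhere. The members without a count were mainly ADAMs known from the testis, such as Adam2, Adam18 and Adam7, together with Mmp1a, Mmp1b, Mmp10, Mmp20, Adamts19 and Adamts20. Levels between genes were compared in FPKM, which correct for length. In all, 28 members had a mean FPKM of at least 1 over the 6 samples, 10 reached 10, and 5 reached 100.

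The member with the highest level was Timp3, which encodes an inhibitor that binds to the extracellular matrix, with a mean of 739.5 FPKM and rank 73 among all genes of the FPKM table. It was followed by Adamts1 (256.7 FPKM), Timp2 (144.5 FPKM), Mmp14 (114 FPKM), Adam15 (113 FPKM), Adam23 (91.5 FPKM) and Adam10 (73.7 FPKM). Adamts4, Adam9 and Adam17 came next, with 35.7, 33.7 and 23.2 FPKM. Below them no member passed 10 FPKM, and Mmp28 led the remainder with 8.81 FPKM.

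This order mixes both ages. In the young samples alone Timp3 (651 ± 99.97 FPKM, SD, n = 3) and Adamts1 (168.5 ± 32.6 FPKM) did not overlap, whereas Mmp14 (122 ± 19.0 FPKM) overlapped with Adam15 (105 ± 3.26 FPKM), and Adam9 (36.6 ± 9.996 FPKM) overlapped with Adam17 (25.2 ± 2.44 FPKM). Adam23 stood above Adam15 in every young sample, at 138 ± 29.5 FPKM, although its mean over both ages was lower. Most neighbours below Mmp28 in the order overlapped in the young samples, so their ranks were not resolved by 3 samples.

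**Figure D1:**
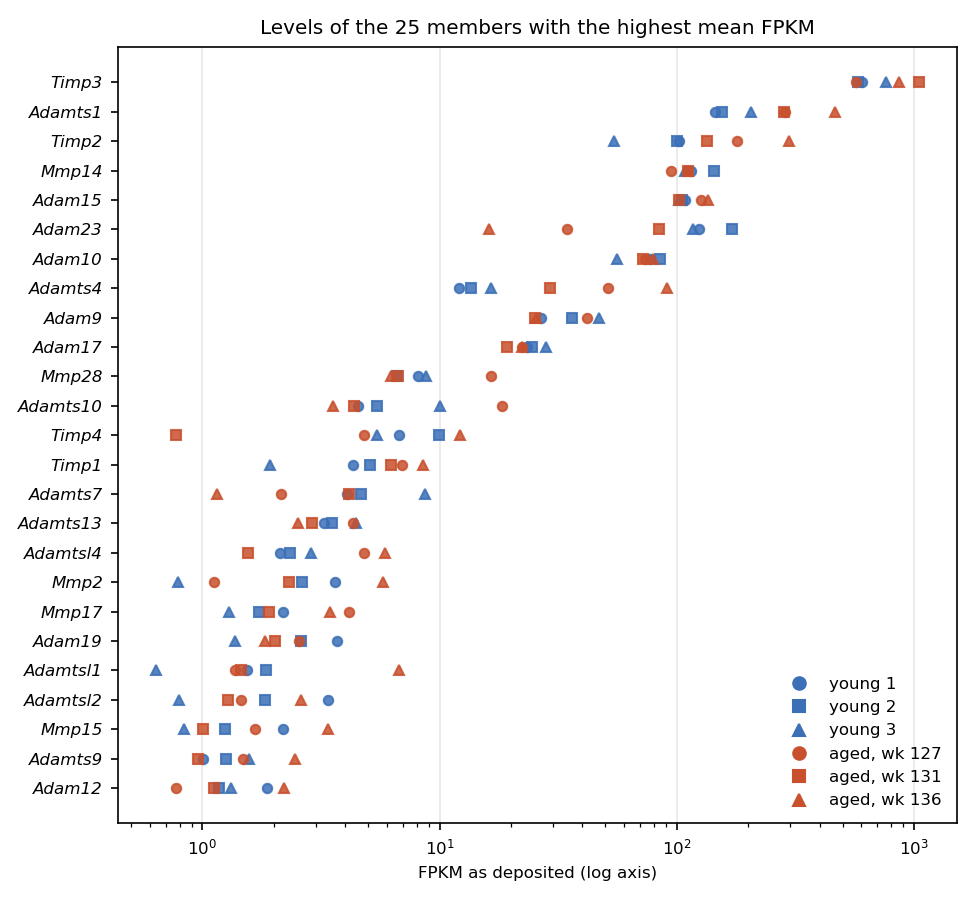
Deposited FPKM (log axis) of the 25 members with the highest mean, with 1 point per sample, blue for young and orange for aged samples. Timp3 lies at the top with 570 to 1049 FPKM, and for Adamts4, Timp2 and Adamts1 the aged points lie to the right of the young points, while for Adam23 they lie to the left.

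A single gene therefore made up most of 3 of the 4 families. Timp3 held 83.5% to 92.5% of the summed TIMP FPKM in young and 73.2% to 88.2% in aged ECs. Adamts1 held 82.7% to 83.5% of the ADAMTS sum in young and 78.0% to 86.5% in aged ECs. Mmp14 held 83.8% to 90.1% of the MMP sum in young and 77.0% to 86.9% in aged ECs. The ADAM sum was spread over Adam15, Adam23, Adam10, Adam9 and Adam17.

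The family sums differed between the ages in opposite directions. The summed ADAMTS FPKM was 173, 187 and 248.5 in the young samples (replicates 1, 2 and 3) and 366, 328 and 573 in the aged samples (127, 131 and 136 weeks). The summed ADAM FPKM was 367, 427 and 355 in the young and 305, 307 and 284 in the aged samples. For both families the ages did not overlap, ADAMTS being higher and ADAM lower in each aged sample. The lower ADAM sum lay in Adam23, as the proteolytic ADAMs summed to 244 ± 9.51 FPKM in young and 252 ± 26.5 FPKM in aged ECs (SD, n = 3) and overlapped, whereas the 3 non-proteolytic ADAMs of somatic tissue, nearly all Adam23, summed to 138 ± 29.5 and 45.6 ± 35.2 FPKM. The TIMP sum (748 ± 70.1 against 1045 ± 245 FPKM, SD, n = 3) and the MMP sum (139.9 ± 18.7 against 129.5 ± 7.33 FPKM) overlapped between the ages. Each sum rests mainly on the few genes described next, and no test was made of it.

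**Figure D2:**
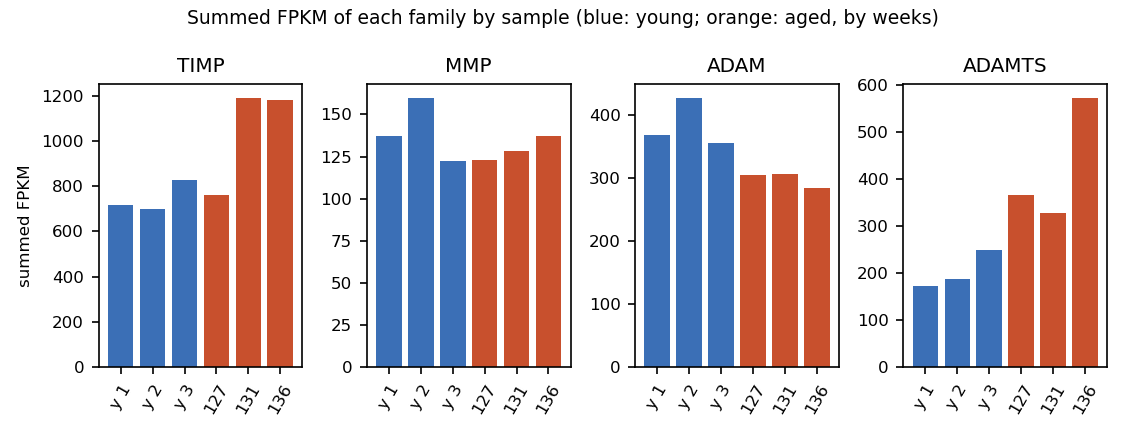
Summed FPKM of the TIMPs, MMPs, ADAMTS proteinases and ADAMs in each of the 6 samples, blue bars for young and orange bars for aged samples, with axes from 0. The ADAMTS bars are 173 to 248.5 in young and 328 to 573 in aged samples, and the ADAM bars 355 to 427 in young and 284 to 307 in aged samples.

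In the comparison of aged with young ECs, 0 of the 53 tested members passed an adjusted p of 0.05 with a log2 fold change beyond 1 in either direction (edgeR's quasi-likelihood test with Benjamini-Hochberg adjustment), and 0% of all 14612 genes tested did. At an unadjusted p below 0.05, whatever the size, 7 members (13.2%) were counted against 12.6% of all genes, so the families as a whole stood near the background. With a log2 fold change beyond 1 as well, 4 members (7.55%) were higher, namely Adamts4, Adamts1, Timp2 and Adam8, against 5.43% of all genes. In the same count 2 members (3.77%), Adam23 and Adamts7, were lower, against 1.19% of all genes. With the DESeq2 Wald test, 3 members, Adamts4, Adamts1 and Timp2, passed an adjusted p of 0.05 as higher, against 2.7% of all genes, and Adam23 passed as lower, against 0.541% of all genes.

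Counted by replicate spread, every aged CPM lay above every young CPM in 7 members (13.2%; 9.62% of all genes) and below in 2 (3.77%; 8.33% of all genes). The 7 were Adamts1, Adamts4, Timp2, Timp1, Adamtsl5, Adamts3 and Adam11, and the 2 were Adam23 and Adam17. In either direction these were 17% of the tested members, beside 17.9% of all genes. The median log2 fold change of the tested members was 0.36, with 35 higher and 18 lower, beside 0.0098 over all genes tested. Among these, Adam30, Mmp8, Mmp12 and Mmp13 passed the filter only through aged samples and Adam28 only through a young sample, which favours the sign they had. The other 48 had a median of 0.32, with 31 higher and 17 lower, beside -0.00365 over the 13458 genes that passed at both ages, of which 49.5% were higher. Without the 136-week sample 52 members were tested, with a median of 0.10. The median of all 53 was -0.13 with a term for the pan-leukocyte markers described below. In bulk samples such as these, a lower value from fewer cells of a type and one from less RNA per cell cannot be told apart.

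**Figure D3:**
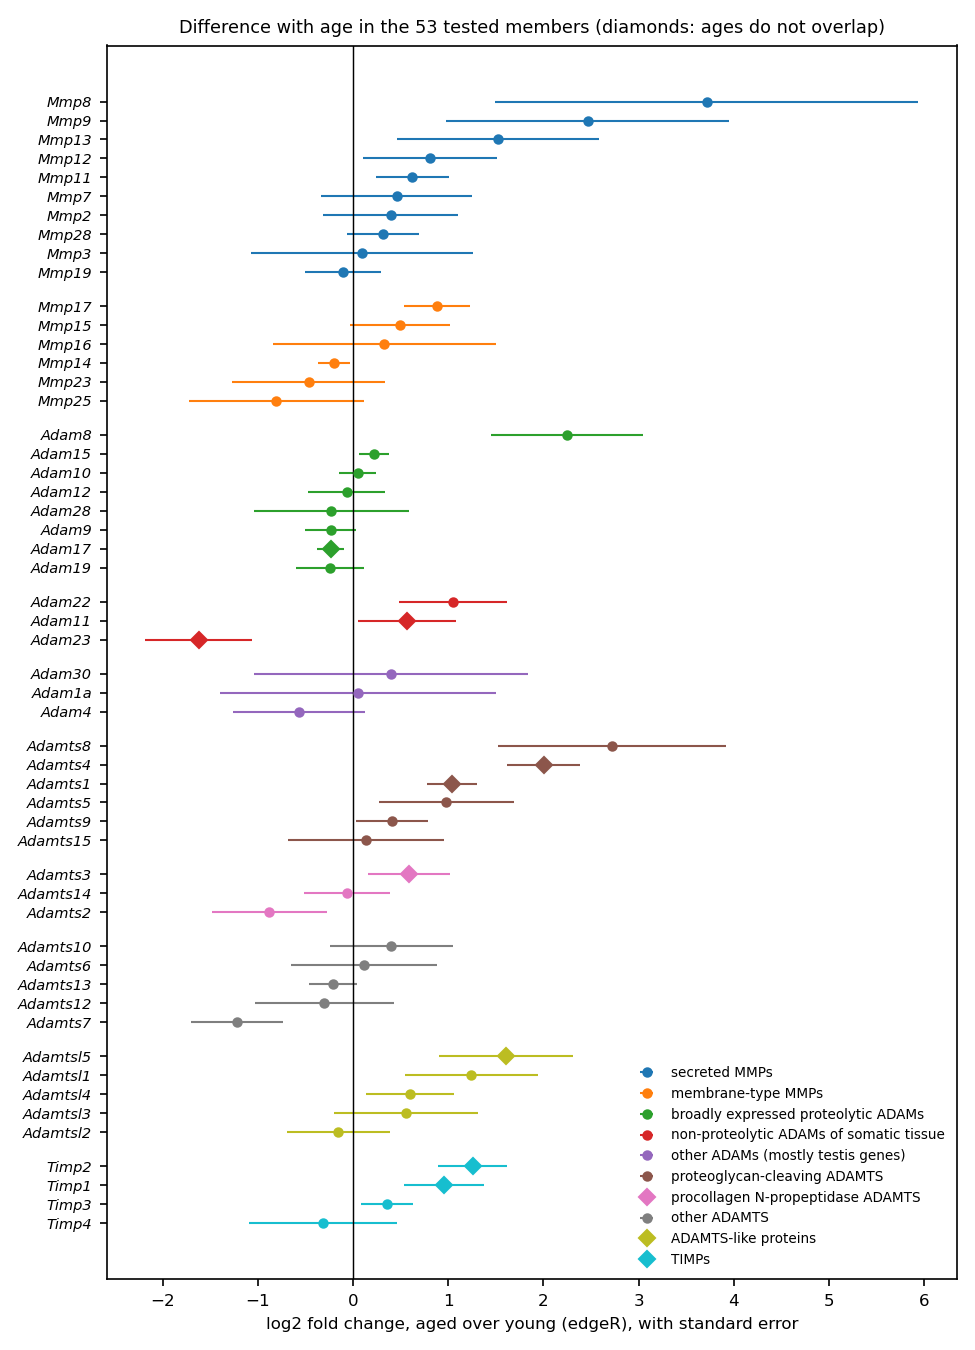
Log2 fold change (aged over young, edgeR) with its standard error for each of the 53 tested members, coloured by class, with diamonds for members whose ages do not overlap in CPM. The 7 diamonds right of 0 include Adamts4 at 2.00 and Timp2 at 1.26, and the 2 left of 0 are Adam23 at -1.62 and Adam17 at -0.24.

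The ADAMTS proteinases that cut proteoglycans held 2 of the 4 members counted as higher. Adamts1 (chromosome 16, 85794072 to 85803358 of mm9, minus strand), which encodes a secreted proteinase known to cut versican and aggrecan and to bind VEGF, had a CPM of 705, 754 and 984 in the young samples. Among aged samples it was 1379 at 127 weeks, 1385 at 131 weeks and 2271 at 136 weeks. All aged samples were above all young samples, and the 136-week sample was the highest. The means of 814.5 ± 149 and 1678 ± 513 CPM (SD, n = 3 each) gave a log2 fold change of 1.04 (standard error 0.26, unadjusted p = 0.00483, edgeR adjusted p = 0.243, DESeq2 adjusted p = 0.00783). The difference was 1.28 in the cluster rich in Lars2 and Rn45s counts and 0.49 in the other, 0.76 without the 136-week sample, 0.95 and 0.99 without young replicates 1 and 2, and 0.73 with a pan-leukocyte term, so that in these 4 fits it was under the size limit. In FPKM it had 145, 155 and 206 in young and 286, 284 and 465.5 in aged ECs, again without overlap.

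Adamts4 (chromosome 1, 173180552 to 173190768 of mm9, plus strand) encodes another aggrecan- and versican-cutting enzyme, known to be induced by inflammatory cytokines. Its CPM was 46.4, 52.2 and 63.4 in the young and 196.5, 110.7 and 341 in the aged samples, in the same order of weeks. The young samples lay close together and the aged samples were widely spread above them. The log2 fold change was 2.00 (standard error 0.39, unadjusted p = 0.00114, edgeR adjusted p = 0.193, DESeq2 adjusted p = 6.74e-05). It was 1.96 and 1.62 within the library clusters. Adamts4 was the only member that stayed past both limits in the upward direction in every edgeR fit that left out 1 sample (1.51 to 2.32), and with the pan-leukocyte term it stood at 1.22. Against Adamts1, the FPKM ratio of Adamts1 to Adamts4 was 11.4 to 12.4 in the young samples and 5.57, 9.70 and 5.10 in the aged samples, with no overlap.

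The 250 bases before the start of the RefSeq transcript (build GRCm38.p6, a later build than the mm9 positions above) are shown for the 3 members that DESeq2 called and for which the promoter table has an entry, so that their start regions can be set beside their levels. Adamts4, also called by DESeq2, has no entry in that table. The windows were searched on both strands for the AP-1 motif TGANTCA, the cAMP response element TGACGTCA, the GC box GGGCGG, the TATA box TATAAA and the NF-kB motif, and matches are in capitals. The lines give Adamts1 at chr16:85803114-85803363 (minus strand), Timp2 at chr11:118355412-118355661 (minus strand) and Adam23 at chr1:63445641-63445890 (plus strand).
Adamts1: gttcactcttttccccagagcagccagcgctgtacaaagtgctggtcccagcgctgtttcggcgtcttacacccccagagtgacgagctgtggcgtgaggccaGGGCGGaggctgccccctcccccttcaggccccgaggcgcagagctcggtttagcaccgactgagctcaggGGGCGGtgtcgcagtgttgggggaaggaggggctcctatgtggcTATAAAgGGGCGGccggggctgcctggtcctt
Timp2: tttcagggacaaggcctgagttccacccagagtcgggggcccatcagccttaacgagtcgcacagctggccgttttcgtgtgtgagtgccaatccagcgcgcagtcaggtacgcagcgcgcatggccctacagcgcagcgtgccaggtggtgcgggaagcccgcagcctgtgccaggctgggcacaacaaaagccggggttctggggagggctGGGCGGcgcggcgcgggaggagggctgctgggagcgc
Adam23: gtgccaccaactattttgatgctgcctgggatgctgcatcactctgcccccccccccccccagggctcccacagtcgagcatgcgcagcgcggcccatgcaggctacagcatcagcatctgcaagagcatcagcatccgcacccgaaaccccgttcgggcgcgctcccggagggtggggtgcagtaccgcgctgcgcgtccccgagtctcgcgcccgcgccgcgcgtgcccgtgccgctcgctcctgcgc

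The Adamts1 window held a TATA box 32 bases and GC boxes 147, 76 and 25 bases before the start, the Timp2 window held a GC box 37 bases before it, and the Adam23 window held none of the listed motifs. Among all 32851 promoter windows of the same length, 32.7% held the GC box, 12.4% the TATA box, 6.75% the AP-1 motif, 3.9% the NF-kB motif and 1.55% the cAMP response element. Of the 53 members with a promoter entry, 24 held the GC box, 13 the TATA box and 12 the AP-1 motif. The NF-kB motif was held by 3 and the cAMP response element by 0. These are not the 53 tested members, as untested genes are included and tested ones such as Adamts4 and Adamts7 are missing. The AP-1 motif lay in the untested Adam20, Adam25, Adam29, Mmp10, Mmp1a, Mmp1b and Mmp20. It also lay in the tested Adam19, Mmp3, Mmp7, Mmp12 and Mmp13. The GC content of the Adamts1, Timp2 and Adam23 windows was 65.6%, 68% and 70.4%, against a median of 52.4%. These are matches of letters, and binding was not measured.

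Of the 7 proteoglycan-cutting ADAMTS genes 6 were tested, and all 6 had a positive log2 fold change, between 0.13 and 2.72, the median being 1.01. Of all genes tested 51.1% were higher. With the pan-leukocyte term Adamts5 (-0.18) and Adamts9 were negative and the others positive. When each sample was left out in turn, Adamts5 and Adamts15 fell as low as -0.05 and -0.35. The others stayed positive, but Adamts9 fell as low as 0.0068, Adamts1 to 0.76 and Adamts8 to 0.91. Beyond Adamts1 and Adamts4, Adamts9, a regulator of matrix turnover, had 8.24 ± 2.06 and 10.96 ± 5.07 CPM (SD, n = 3). It overlapped between the ages, and its log2 fold change was -0.24 with the pan-leukocyte term. Adamts5 and Adamts8 were looked at after their values were seen. Adamts5, known as a major aggrecanase of cartilage, lies 55056 bases from Adamts1 and had 6.997, 10.7 and 2.59 CPM in the young and 7.74, 5.33 and 27.0 CPM in the aged samples. Adamts8 had 0.372, 0.632 and 0.0631 CPM in the young and 0.310, 1.01 and 5.65 CPM in the aged samples. For both genes the ages overlapped and the 136-week sample alone stood high, with edgeR adjusted p = 0.629 and 0.408.

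Among the procollagen N-propeptidases, which trim fibrillar collagens, Adamts3 had 1.53, 1.31 and 1.39 CPM in the young and 1.55, 3.03 and 1.79 CPM in the aged samples. The ages did not overlap in CPM, by a gap smaller than 1 count, and they did overlap in FPKM. The log2 fold change of 0.59 had a standard error of 0.43 (edgeR adjusted p = 0.633). Adamts2 (6.49 ± 4.30 against 3.52 ± 1.07 CPM) and Adamts14 (2.01 ± 0.48 against 1.92 ± 0.76 CPM) had log2 fold changes of -0.88 and -0.06, within their spread.

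Adamts7 (chromosome 9, 90057816 to 90102909 of mm9), which encodes a proteinase known from vascular smooth muscle that cuts cartilage oligomeric matrix protein, was the lower of the remaining ADAMTS genes. Its CPM was 22.5, 25.5 and 49.4 in the young and 12.1, 22.99 and 6.66 in the aged samples. The 131-week sample lay within the young range and the other aged samples below it. The log2 fold change was -1.22 (standard error 0.49, unadjusted p = 0.0392, edgeR adjusted p = 0.371, DESeq2 adjusted p = 0.140), and -0.88 and -1.94 within the library clusters. It left the unadjusted count without young replicate 3 (-0.79), without the 127-week sample (-1.13), without the 136-week sample (-0.89), with the library cluster term (-1.13) and with the pan-leukocyte term (-0.78). The same held with limma-voom (-0.98), on log2(FPKM + 1) (-0.99) and in the 4 samples rich in Lars2 and Rn45s counts (-0.69). Adamts7 shares 122 exon bases, 1.91% of its exons, with Tbc1d2b on the opposite strand, and Tbc1d2b had 87.5, 104 and 116 CPM in the young and 73.7, 110 and 49.4 CPM in the aged samples. Reads in that overlap cannot be assigned without strand.

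Adamts13, which encodes the proteinase that cuts von Willebrand factor and is best known from hepatic stellate cells, had 12.6 ± 2.06 and 10.9 ± 3.04 CPM, a log2 fold change of -0.21 (edgeR adjusted p = 0.797). Adamts10, a fibrillin-binding member, had 78.0 CPM in the 127-week sample against 14.6 to 42.6 CPM in the other 5. Its log2 fold change of 0.40 was -0.76 without that sample. Of the 5 ADAMTS-like genes, whose products lack a catalytic domain, Adamtsl5 had 0.930, 0.993 and 0.189 CPM in the young and 1.24, 2.101 and 3.09 CPM in the aged samples, without overlap, at a level of 6 to 76 counts per library. Its log2 fold change was 1.61 (standard error 0.71, edgeR adjusted p = 0.406). Adamtsl4 (11.6 ± 3.07 against 17.6 ± 9.58 CPM), Adamtsl1 (11.1 ± 5.32 against 26.1 ± 25.1 CPM) and Adamtsl2 (6.46 ± 4.29 against 5.80 ± 2.29 CPM) overlapped between the ages.

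Adam23 (chromosome 1, 63492465 to 63643089 of mm9) was the member with the greatest shift to lower values. It encodes an ADAM without a catalytic site that is known from the nervous system, where it binds LGI proteins and integrins. Its CPM was 496, 673 and 406 in the young and 127, 323 and 61.3 in the aged samples (127, 131 and 136 weeks). All aged samples lay below all young samples, and the 131-week sample was closest to the young range. The means of 525 ± 136 and 170 ± 136 CPM (SD, n = 3 each) gave a log2 fold change of -1.62, or 3.08-fold lower (standard error 0.56, unadjusted p = 0.0217, edgeR adjusted p = 0.332, DESeq2 adjusted p = 0.0381). The difference was -2.03 and -1.67 within the library clusters, -1.22 to -2.48 when each sample was left out in turn, and -0.94 with the pan-leukocyte term. It did not stay past both unadjusted limits without young replicate 2 (-1.40), without the 127-week sample (-1.45), in the 4 samples rich in Lars2 and Rn45s counts (-1.60) or with that term. Adam23 made up 33.1% to 40.2% of the summed ADAM FPKM in the young samples and 11.3%, 27.5% and 5.66% of it in the aged samples.

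The 131-week sample, the highest aged sample for Adam23, was also the highest aged sample for Stab2, a scavenger receptor of sinusoidal ECs. Stab2 had 2902, 3199 and 3021 CPM in the young and 504, 1760 and 542 CPM in the aged samples. The summed CPM of 9 sinusoidal markers was 16930 to 18670 in the young and 7177, 11920 and 7488 in the aged samples, and 8 of the 9 were lower. The part of the sinusoidal markers in the Adam23 difference was not tested. The other non-proteolytic ADAMs of somatic tissue, Adam11 and Adam22, both known as neuronal proteins, stood at low levels. Adam11 had 0.497 to 0.947 CPM in the young and 0.997 to 1.38 CPM in the aged samples, without overlap in CPM but with overlap in FPKM, and Adam22 had 1.38 to 2.62 against 1.48 to 5.89 CPM.

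**Figure D4:**
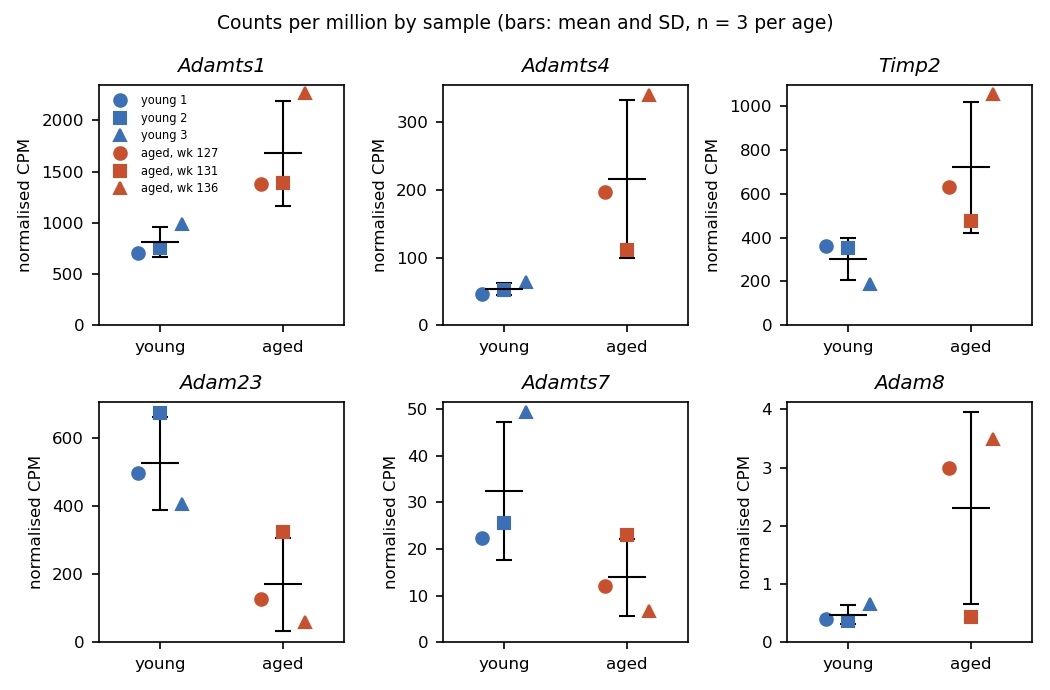
Normalised CPM of the 6 members past an unadjusted p of 0.05 and a log2 fold change of 1, with 1 point per sample and bars for mean and SD (n = 3 per age), each panel with its own axis from 0. Adamts1, Adamts4 and Timp2 are higher in every aged sample and Adam23 lower in every aged sample, while in Adamts7 and Adam8 the 131-week sample lies among the young samples.

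The ADAM sheddases Adam10 and Adam17 did not reach an unadjusted p of 0.05 in edgeR's test. Adam10, the main alpha-secretase and Notch sheddase, had 352, 385 and 250 CPM in the young and 330, 328 and 361 CPM in the aged samples, a log2 fold change of 0.05 (standard error 0.19, edgeR adjusted p = 0.954). Adam17, the sheddase of TNF and of EGF receptor ligands, had 102, 107 and 121 CPM in the young and 97.4, 84.4 and 98.4 CPM in the aged samples. Every aged sample of Adam17 lay below every young sample, but the distance was small, with a log2 fold change of -0.24 (standard error 0.14, unadjusted p = 0.128, edgeR adjusted p = 0.541).

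Adam15, an ADAM known from endothelial junctions, had 298, 288.5 and 275 CPM in the young and 346, 281 and 373 CPM in the aged samples, a log2 fold change of 0.21 (edgeR adjusted p = 0.635). Adam9, a widely expressed sheddase, had 143.5 ± 37.9 and 122 ± 36.1 CPM, a log2 fold change of -0.24 (edgeR adjusted p = 0.778). In both genes the ages overlapped. Adam12 (11.3 ± 2.86 against 10.8 ± 5.96 CPM), Adam19 (16.4 ± 7.51 against 13.9 ± 2.40 CPM) and Adam28, with 51 counts in all, overlapped too. Of the 8 tested members of this class 3 had higher and 5 had lower values in aged ECs (median log2 fold change -0.15), Adam28 among the lower having passed the filter only through young replicate 1.

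Adam8 (chromosome 7, 147164831 to 147178461 of mm9), known from leukocytes, had the largest log2 fold change of the tested proteolytic ADAMs but stood at a low level. Its CPM was 0.409, 0.361 and 0.663 in the young and 2.99, 0.428 and 3.49 in the aged samples. The 131-week sample lay within the young range, so the ages overlapped. The log2 fold change was 2.25 (standard error 0.80, unadjusted p = 0.0243, edgeR adjusted p = 0.336, DESeq2 adjusted p = 0.101). It was 0.87 and 1.26 within the library clusters, and of the 6 fits that left out 1 sample it stayed past both unadjusted limits only in those without young replicate 3 and without the 131-week sample. Ptprc, which encodes CD45, had 1.56, 1.17 and 1.70 CPM in the young and 7.57, 1.28 and 25.6 CPM in the aged samples, the same 2 aged samples being high. Once the mean log2 CPM of 10 pan-leukocyte markers was a term in the fit, the log2 fold change of Adam8 was 0.68 and no longer past the unadjusted limit. With that term the share of all genes past both unadjusted limits as higher was 2.14%, against 5.43% without it. The cells were sorted as CD45-, and the part of leukocytes in the Adam8 difference was not tested.

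Among the ADAMs outside these classes, mostly genes of the testis, only Adam1a, Adam4 and Adam30 passed the filter, with 0.201 to 0.896 CPM in the mean of either age and log2 fold changes of 0.05, -0.57 and 0.40, none beyond its standard error. Adam1a shares 33.7% of its 75-base stretches with other genes and 24.9% of its exon bases with Mapkapk5, so its counts are uncertain.

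The MMPs were carried by the membrane-type enzyme Mmp14, which cuts collagens at the cell surface and activates the Mmp2 precursor. Its CPM was 287, 357 and 262.5 in the young and 232, 278 and 277 in the aged samples. The ages overlapped, with a log2 fold change of -0.20 (standard error 0.17, edgeR adjusted p = 0.693), and the difference was -0.20 and -0.18 within the library clusters. Mmp17, another membrane-type enzyme held by a lipid anchor, had 7.48, 5.91 and 4.32 CPM in the young and 14.2, 6.69 and 11.8 CPM in the aged samples. Its log2 fold change of 0.88 (standard error 0.35, unadjusted p = 0.0363, edgeR adjusted p = 0.368) lay under the size threshold, and the 131-week sample lay in the young range. Mmp15 had 6.06 ± 3.00 and 8.55 ± 5.23 CPM and a log2 fold change of 0.50, which was -0.37 with the pan-leukocyte term.

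Secreted MMPs were low in these ECs. Mmp28, an MMP of epithelia and macrophages, led them with 18.5 ± 2.44 CPM in young and 23.03 ± 13.4 CPM in aged ECs, and its log2 fold change of 0.31 was -0.28 without the 127-week sample, which stood at 38.5 CPM. Mmp2, the gelatinase that Mmp14 activates, had 10.7, 7.72 and 2.30 CPM in the young and 3.23, 6.85 and 17.1 CPM in the aged samples, with a log2 fold change of 0.39 that was -0.45 without the 136-week sample. Mmp7 had 0.511 ± 0.379 and 0.708 ± 0.292 CPM. None of the 10 tested secreted MMPs had an unadjusted p below 0.05 in edgeR's test. Of these, Mmp8, Mmp12 and Mmp13 passed the filter on low values only through aged samples, so the sign of their difference was favoured by the filter.

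Mmp8 and Mmp9, collagenase and gelatinase of neutrophils, were looked at after their values were seen. Of the 57 counts on Mmp8, 53 were in the 136-week sample and 4 in young replicate 1. Mmp9 had 21, 2 and 0 counts in the young and 45, 3 and 79 counts in the aged samples. The 136-week sample also held the most counts of the neutrophil genes Ngp and S100a9, with 10.6 and 14.3 CPM against at most 0.372 and 1.62 CPM in the other 5 samples. The log2 fold change of Mmp9 was 2.46 (edgeR adjusted p = 0.553) and -0.18 with the pan-leukocyte term. That of Mmp8 changed sign with the same term, but with 53 of 57 counts in the 136-week sample this fitted value carries no weight. The part of neutrophils in the Mmp8 and Mmp9 differences was not tested.

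Among the inhibitors, Timp2 (chromosome 11, 118162383 to 118217054 of mm9), which inhibits many MMPs and takes part in the activation of the Mmp2 precursor by Mmp14, differed most. Its CPM was 361, 354 and 189 in the young and 631, 476 and 1055 in the aged samples (127, 131 and 136 weeks). All aged samples were above all young samples, with young replicate 3 the lowest and the 136-week sample the highest. The means of 301.5 ± 97.1 and 721 ± 299.8 CPM (SD, n = 3 each) gave a log2 fold change of 1.26, or 2.39-fold (standard error 0.36, unadjusted p = 0.00979, edgeR adjusted p = 0.265, DESeq2 adjusted p = 0.0227). The difference was 0.98 and 1.73 within the library clusters, 0.88 to 1.48 when each sample was left out in turn, the lowest being without the 136-week sample and under the size limit, and 0.77 with the pan-leukocyte term. Timp2 left the unadjusted count in the fit without the 136-week sample, with the pan-leukocyte term and with limma-voom (0.95). Timp2 held 6.60% to 14.3% of the TIMP FPKM in the young samples and 23.7%, 11.2% and 25.1% in the aged samples.

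Timp3, an inhibitor of ADAMs and ADAMTS proteinases as well as MMPs, had 2804, 2711 and 3485 CPM in the young and 2620, 4893 and 4036 CPM in the aged samples. The 127-week sample was the lowest of all, so the ages overlapped, and the log2 fold change was 0.36 (standard error 0.27, edgeR adjusted p = 0.648). It was 0.69 within the cluster with many Lars2 and Rn45s counts and -0.41 within the other. Timp3 shares 21.3% of its exon bases with Syn3 on the opposite strand, and Syn3 had 1.503 to 3.28 CPM. Reads in that overlap cannot be assigned without strand. Timp1, an inducible inhibitor, had 3.05, 3.57 and 1.33 CPM in the young and 4.81, 4.51 and 6.05 CPM in the aged samples. All aged samples of Timp1 were above the young samples at this low level, with a log2 fold change of 0.96 (standard error 0.42, unadjusted p = 0.0543, edgeR adjusted p = 0.404). Timp4 had 8.60, 12.9 and 6.94 CPM in the young and 6.16, 1.05 and 15.6 CPM in the aged samples, the widest spread of the TIMPs in aged ECs relative to its mean.

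Set against each other per length, the TIMP sum was 5.21, 4.37 and 6.75 times the MMP sum in the young and 6.20, 9.27 and 8.61 times in the aged samples, which overlapped. The TIMP sum was 4.13, 3.73 and 3.33 times the ADAMTS sum in the young and 2.08, 3.63 and 2.06 times in the aged samples. The 131-week sample lay within the young range of that ratio, and the other aged samples below it.

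On the log2(FPKM + 0.1) scale the deposited FPKM values gave the same direction as the counts for 52 of the 53 tested members. The exception was Mmp23, at 0.02 on that scale and -0.47 from counts, while its mean FPKM was lower in aged ECs, as its counts were (0.8715 against 0.636 FPKM). Among the 26 members with a mean CPM of at least 5, the fold changes from counts and from log2(FPKM + 0.1) differed by at most 0.64, for Timp4. In FPKM 5 members (9.43%; 9.44% of all genes) were higher without overlap and 2 (3.77%; 8.78% of all genes) lower. By the mm9 annotation other genes also cover part of the exons of Adam15 (20.5%), Mmp28 (12%), Mmp7 (11.5%) and Adamts9 (11.02%), whose counts are uncertain to that extent. The overlapping gene had 0.203 to 0.677 CPM for Mmp28 and 0 CPM in every sample for Mmp7. Those that share exon bases with Adam15 and Adamts9 had no values.

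Genes that work with these families were taken from lists of partners and substrates. In each list 0 genes passed an adjusted p of 0.05 with a log2 fold change beyond 1 in edgeR's test. Of 12 activating proteases and their regulators, 4 were higher and 1 lower by the unadjusted rule used for the members, beside 5.43% and 1.19% of all genes tested. By the adjusted DESeq2 rule, with the same size limit, 5 passed in either direction, beside 2.7% higher and 0.541% lower of all genes. These shares are the background for each list that follows. Plat, the tissue plasminogen activator, had 49.8, 39.9 and 41.2 CPM in the young and 114, 113 and 254 CPM in the aged samples, a log2 fold change of 1.88 (standard error 0.34, edgeR adjusted p = 0.193, DESeq2 adjusted p = 3.49e-05). Plaur, the receptor of urokinase, had 26.2, 39.9 and 42.3 CPM in the young and 85.7, 66.7 and 214 CPM in the aged samples, a log2 fold change of 1.76 (edgeR adjusted p = 0.245). Both were higher in every aged sample. Plg, plasminogen, a liver plasma protein, had 3.35 to 8.58 CPM in the young and 1.34 to 2.26 CPM in the aged samples, with a log2 fold change of -1.59 (edgeR adjusted p = 0.256). Of the 13 hepatocyte markers 12 were also lower in aged ECs, 5 without overlap, with a median log2 fold change of -0.86, and their part in the Plg difference was not tested.

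Of 12 tested genes listed as ADAMTS substrates, 3 were higher and 0 lower by the unadjusted rule, and 1 passed the DESeq2 rule. Their median log2 fold change was 0.02, with 6 genes higher and 6 lower. Comp, cartilage oligomeric matrix protein and a substrate of Adamts7 and Adamts4, had 11.4, 9.93 and 5.27 CPM in the young and 36.0, 11.4 and 56.8 CPM in the aged samples, a log2 fold change of 1.97 (edgeR adjusted p = 0.265). The 131-week sample was next to the highest young sample. Fbln2, a fibulin of vessel walls, had 539 ± 107 and 1227 ± 764 CPM without overlap, and Mmrn1, a multimerin of ECs and platelets, had 910 ± 399 and 2290 ± 1520 CPM with overlap. In the other direction Tfpi, the tissue factor pathway inhibitor, had 443, 553 and 380 CPM in the young and 190.5, 304 and 203 CPM in the aged samples, a log2 fold change of -0.98 just under the size limit (edgeR adjusted p = 0.235, DESeq2 adjusted p = 0.00859). Nid1, nidogen of the basement membrane, was likewise lower in every aged sample, with a log2 fold change of -0.42 (edgeR adjusted p = 0.385). Tfpi and Nid1 were chosen after their values were seen. Whether the product of Tfpi is cut by ADAMTS proteinases was not checked here. Tfpi2, a different gene kept in the list of inhibitors, had a log2 fold change of 0.10 (edgeR adjusted p = 0.925).

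Of 24 tested membrane proteins known to be shed, 8 were higher and 0 lower by the unadjusted rule, and 5 passed the DESeq2 rule. Without overlap of the ages 5 were higher and 4 lower, beside 9.62% and 8.33% of all genes, and the median log2 fold change was 0.02. Vcam1, an adhesion molecule shed by Adam17, had 841, 951 and 875.5 CPM in the young and 1631, 1918 and 2633 CPM in the aged samples, a log2 fold change of 1.21 (edgeR adjusted p = 0.193, DESeq2 adjusted p = 3.49e-05). Icam1 had log2 fold change 1.56 and Jag1, a Notch ligand, 1.03, both without overlap between the ages and with edgeR adjusted p = 0.193. The 4 lower in every aged sample were the receptors Kdr (-0.65), Notch4 (-0.58), Tek (-0.38) and Eng (-0.33), with edgeR adjusted p from 0.366 to 0.568, named after their values were seen. The sheddases Adam10 and Adam17 themselves had differences of 0.05 and -0.24, as given above.

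Of 18 genes of basement membranes and collagens 1 was higher, Fn1, fibronectin, with 34.6 ± 16 and 115 ± 86.8 CPM and overlapping ages. Of 8 inhibitors and clearance proteins 1 was higher, Thbs1 (82.5 ± 30.0 against 211 ± 169 CPM), and 1 lower, Pzp (11.9 ± 5.14 against 5.56 ± 2.75 CPM). Of the 8 tested ADAM chaperones and partners, 0 were higher or lower by this rule, and 0 passed the DESeq2 rule.

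The labelled cell type was checked against marker lists, since members such as Mmp8, Mmp9 and Adam8 are known from leukocytes. The summed CPM of 10 endothelial markers was 11380 to 13030 in the young and 8267 to 10550 in the aged samples. The pan-leukocyte sum (10 genes, 10 higher in aged) was 104 to 108.5 in the young and 123, 103 and 389 in the aged samples (two-sided exact permutation test over samples, p = 0.4). Most of this sum in the young samples was Lcp1, and the other 9 genes summed to 29.3, 16.8 and 22.8 CPM in the young and 63.5, 19.2 and 232.5 CPM in the aged samples, the 131-week sample alone lying in the young range. The neutrophil sum (10 genes) was 4.01 to 10.5 in the young and 13.1, 7.90 and 60.5 in the aged samples (exact permutation p = 0.2). The sum of Kupffer and myeloid genes (13 genes) was 118 to 143 in the young and 244, 41.9 and 571 in the aged samples (exact permutation p = 0.4). With 3 samples against 3 such a test cannot give less than 0.1, which the sinusoidal, endothelial, cholangiocyte, mesothelial, and T and NK lists reached. For cholangiocytes and for T and NK cells this rested on 1 gene each, as the ages overlapped without Spp1 (7.41 to 24.2 against 20.4 to 32.3 CPM) and without Lck (0.978 to 2.53 against 1.21 to 32.9 CPM). The hepatocyte sum (13 genes) overlapped between the ages, at 286 to 381 CPM in the young and 214 to 340 CPM in the aged samples, but without Trf, its leading gene, it did not, at 151 to 224 against 97.0 to 128 CPM.

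The sum of the stromal markers overlapped between the ages. Of the 13 genes 1, Lrat, was lower in every aged sample, a share near the 8.33% of all genes tested. Lrat had 4.51 to 23.6 CPM in the young and 1.67 to 4.18 CPM in the aged samples. Its log2 fold change was -2.19 (edgeR adjusted p = 0.286, DESeq2 adjusted p = 0.0194). The summed CPM of 13 stellate, fibroblast and mural genes was 541, 452 and 158 in the young and 471, 253.5 and 779 in the aged samples. Reln made up much of this sum, with 155, 181 and 69.9 CPM in the young and 351, 109 and 496 CPM in the aged samples. The other 12 markers summed to 386, 271 and 88.4 CPM in the young and 120, 145 and 283 CPM in the aged samples. Young replicate 3 was the lowest of all 6 with or without Reln, while the highest was the 136-week sample with Reln and young replicate 1 without it. The 136-week sample was also the top sample for 24 of the 53 tested members (45.3%), against 25.7% of all genes tested, and young replicate 3 was the bottom sample for 21 (39.6%), against 21.8%. Young replicate 3 and the 136-week sample were the lowest and the highest for Timp2, Mmp2, Mmp15, Adamts5, Adamts8 and Timp1, among others. The part of the stromal markers in these differences was not tested. The dissociation response list, 13 genes induced by tissue digestion, summed to 22210 to 25540 CPM in the young samples. Its sums of 25320, 26360 and 33840 CPM in the aged samples overlapped with these. Gene by gene, 12 of the 13 were higher at the older age and 1 was lower (median log2 fold change 0.53). Without overlap 6 were higher and 1, Dusp1, was lower, beside 9.62% and 8.33% of all genes. By the unadjusted rule 2 were higher and 0 lower. The part of this list in the Adamts1 and Adamts4 differences was not tested.

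**Figure D5:**
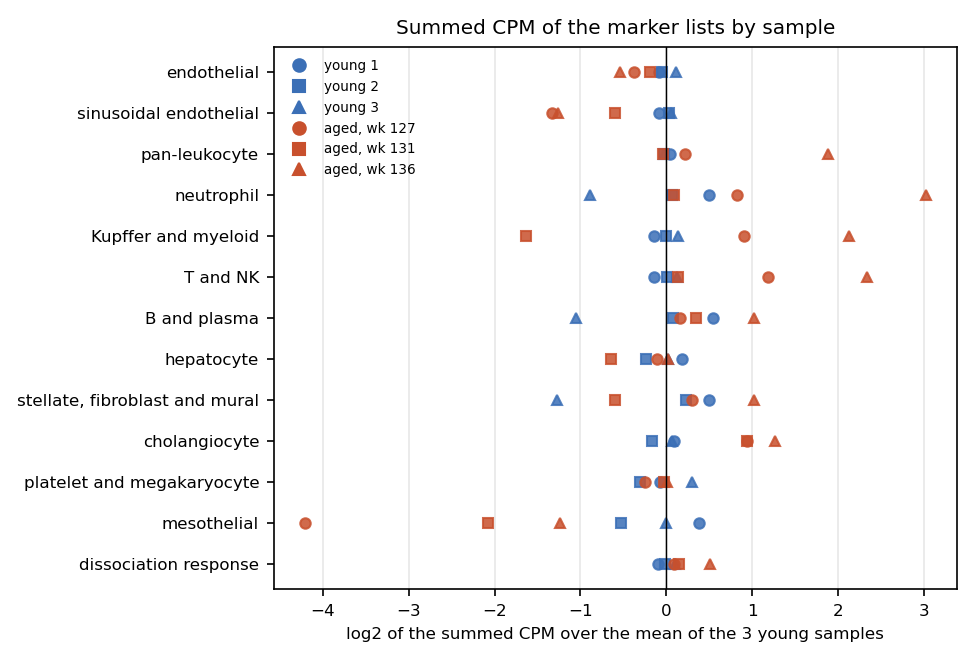
Log2 of the summed CPM of each marker list over the mean of the 3 young samples, with 1 point per sample. The 136-week sample (orange triangles) lies furthest to the right in the pan-leukocyte, neutrophil and Kupffer lists, and in the stromal list through Reln, and all aged samples lie left of the young samples in the sinusoidal list.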

How the data were processed

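The measurements are RNA-seq of sorted liver ECs in 3 samples of young and 3 of aged mice. The number of mice behind a sample is not given in the sources used here, so p-values measure the spread between these samples. Bases were called by the authors with CASAVA 1.8.2 and the single-end reads of 75 bases were placed on mm9 with TopHat2 2.1.0. The authors deposited whole-number counts per gene symbol, without normalization. They also deposited FPKM values made by the authors with Cuffnorm 2.2.1. The counting program, its annotation and its use of strand are not given in the sources used here. Intervals and floors cover counting error only. Of the symbols in the count table, 27 had been turned into dates and were kept as they stand.

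Genes with at least 0.5 CPM in at least 1 sample were normalized by TMM and tested with edgeR 4.0.16 (quasi-likelihood test, R 4.3.3), with Benjamini-Hochberg adjustment over all genes tested. The standard error of a log2 fold change is its size over the square root of F. DESeq2 1.42.0, limma 3.58.1 (voom with sample weights, and log2 FPKM with a pseudocount of 0.1 or 1), other size factors, other filters, a library cluster term, a pan-leukocyte marker term and the removal of each sample were alternatives. A fit to the 4 samples with many Lars2 and Rn45s counts was added after seeing the data. The procedure was tested on simulated data. Named genes are the members past both an unadjusted p of 0.05 and a log2 fold change of 1, those whose ages do not overlap, the 3 highest by FPKM of each class, the TIMPs, and up to 3 genes per partner list. The members and lists were chosen with earlier results of these data known. Positions come from GENCODE for mm9 and promoter sequences from RefSeq for GRCm38.p6. Of the 84 members, 83 had a position. Exon overlaps and shared 75-base stretches were computed from the same annotation.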

Additional observations from a re-analysis of the deposited data

How the results depend on the processing

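No paired analysis was made, because the samples are called independent and no young sample is paired with an aged one. The DESeq2 test gave 3 members higher and 1 lower past an adjusted p of 0.05, where edgeR gave 0 and 0, and the cause was not tested. With an unadjusted p, the 4 higher members became 7 with library size alone, 7 with a library cluster term and 1 (Adamts4) with a pan-leukocyte term, where 6.16%, 5.24% and 2.14% of all genes were called against 5.43%, and 1 to 6 when each sample was left out, the 1 again being Adamts4, without the 136-week sample (2.75% to 7.71% of all genes). The 2 lower members became 1 with voom, with log2(FPKM + 1), with the cluster term and in the 4 samples with many Lars2 and Rn45s counts (1.27%, 0.589%, 1.16% and 0.925% of all genes), and 0 to 2 when each sample was left out, with 0 without the 127-week sample and 1 (Adamts7) without young replicate 2 (0.916% to 1.96% of all genes, against 1.19%). The 2 were Adam23 and Adamts2 without young replicate 3, and Adam23 and Mmp25 without the 136-week sample, so Adamts7 was lost in both. In the 4 samples the 1 lower member was Adamts2, and with voom, log2(FPKM + 1) and the cluster term it was Adam23. With the pan-leukocyte term the 2 lower members were Mmp8 and Timp4. The median log2 fold change of 0.36 was 0.072 on log2(FPKM + 1), -0.13 with the pan-leukocyte term, 0.15 in the 4 samples, and 0.10 to 0.51 when each sample was left out. Members without overlap of the ages numbered 8 to 14 higher and 3 to 6 lower when each sample was left out, beside 12.3% to 18.5% and 11% to 16.1% of all genes, and 12 and 11 in the 4 samples, beside 23.3% and 22.3%. With library size alone 1 was lower, beside 5.51%. The shares with all samples were 9.62% and 8.33%.

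Of the refits of the 34 named members, 571 kept their direction and side of the threshold, 4 passed it (DESeq2, Adamts1, Adamts4, Timp2 and Adam23) and 30 changed sign, in 13 genes. The sign changes came with voom in Adam10 (-0.10) and Mmp2 (-0.33), with library size alone in Adamts14 (0.029), and with the cluster term in Adam1a (-0.10) and Adamtsl2 (0.011). The pan-leukocyte term reversed Adam30 (-1.25), Adamts9 (-0.24), Adamtsl4 (-0.32), Mmp15 (-0.37), Mmp2 (-0.20) and Mmp7 (-0.13). The fit to 4 samples reversed Adam10 (-0.10), Adam1a (-0.27), Adamts10 (-0.33) and Mmp28 (-0.20). Leaving out each sample gave ranges of -0.12 to 0.17 for Adam10, -1.45 to 1.23 for Adam1a, -0.17 to 1.28 for Adam30, -0.76 to 0.82 for Adamts10, -0.40 to 0.18 for Adamts14, -0.54 to 0.48 for Adamtsl2, -0.10 to 0.95 for Mmp15, -0.45 to 0.86 for Mmp2, -0.28 to 0.56 for Mmp28 and -1.39 to 0.20 for Timp4. At this depth members near 0.1 CPM rest on about 3 counts, so their values are imprecise.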

Other observations

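The MMP genes include a cluster of 10 on chromosome 9 (7272514 to 7699585 of mm9), which holds Mmp7, Mmp20, Mmp27, Mmp8, Mmp10, Mmp1a, Mmp1b, Mmp3, Mmp12 and Mmp13. Of these, 4 (Mmp1a, Mmp1b, Mmp10 and Mmp20) had 0 counts in all 6 libraries and 5 were tested. Mmp3, stromelysin, had 0.968, 0.722 and 0 CPM in the young and 0.516, 0.739 and 0.528 CPM in the aged samples. Mmp12, the macrophage elastase, had 0.330 ± 0.098 CPM in young and 0.579 ± 0.278 CPM in aged ECs (SD, n = 3), and Mmp13, a collagenase, 0.245 ± 0.219 and 0.723 ± 0.521 CPM. These genes were chosen for their position after the values were seen, and none had an unadjusted p below 0.05 in edgeR's test.

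Relative to the young mean, the median member stood at 0.37 in the sample of 136 weeks, 0.19 in that of 127 weeks and -0.09 in that of 131 weeks, as log2 differences. In young replicates 1, 2 and 3 it stood at 0.07, 0.02 and -0.13, and the pooled SD was 0.18.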
